A study of Rattus norvegicus with 46 samples.

Results

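Genes of nucleoside uptake and breakdown were measured from the bottom to the top of the duodenal villus in rats on different iron supplies. The set held 9 genes: Nt5e, Slc28a1, Slc28a2, Slc29a1, Cda, Ada, Pnp, Upp1 and Xdh. Members were found by gene symbol in the array's probe annotation, and all 9 had a probe set, of 14217 genes with one. They gave 10 probe sets, because Pnp had 2, and all 10 passed the filter on dim probe sets that left 26517 of 31042. The members were chosen by their function and by their log2 intensities in the top, bottom and crypt arrays of these same groups, with earlier results known, so the counts and p-values of its members describe where they stand in a fit of the whole array and are not independent support.

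Each rat gave an Affymetrix array of sections from the top of the villus and one from the bottom, both cut from the same 1-cm piece of duodenum. Wistar rats, all 1 month old at the start, were iron-repleted (n = 3), iron-deficient (n = 4) or controls on a normal diet (n = 4). The deficient rats ate a low-iron diet and lost 2 to 3 ml of blood every 3 days for 4 weeks, and the repleted rats had the same treatment and then 50 µM ferric ammonium citrate in their drinking water for 3 days. Belgrade rats, which are homozygous for a mutation of the iron transporter gene Slc11a2, were kept on a normal diet (n = 4) or given iron for 3 days (n = 4) or for 6 days (n = 3). No separate age is given for the Belgrade rats, so genotype and age cannot be told apart. One more Wistar rat, from a separate experiment, gave an array of the upper crypt and one of the lower crypt.

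Dietary nucleic acids reach the brush border as nucleotides and nucleosides. Ectonucleotidases and phosphatases at the cell surface remove the phosphates, concentrative and equilibrative transporters carry the nucleosides into and out of the enterocyte, and deaminases and phosphorylases inside the cell turn them into bases. Xanthine dehydrogenase then takes the purine bases to urate. Dividing cells of the crypt need the opposite pathways, de novo synthesis and salvage, to make nucleotides for DNA and RNA.

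Levels are log2 normalized intensities, so that a difference of 1 is a doubling, and a probe set's level was compared between arrays and never with that of another probe set. Over the 44 villus arrays, median intensities ran from 597 to 1179. Control rats 1 and 2 had nearly identical arrays in both segments, and so did rats 1 and 2 of the Belgrade group on a normal diet. Both pairs were averaged, so that 22 rats gave 20 counted samples. A list of 8 enterocyte marker genes was higher at the top in 8 of 8, and a list of 11 genes of dividing cells was lower at the top in 11 of 11, as the labels of the segments imply. Some bottom arrays held other tissue. The summed level of 11 smooth muscle and stroma genes reached 19.23 in repleted rat 3 and 19.25 in control rat 3, where the median of the bottom arrays was 16.88, and the summed level of 9 exocrine pancreas genes reached 19.43 in deficient rat 1 and 18.14 in control rat 1, where the median was 13.21. Xist was above a level of 12 in all 3 Belgrade rats given iron for 6 days, against 1 of 4 Belgrade rats on a normal diet, and sex is not given in the labels. Slc11a2 itself differed by 1.49 ± 0.38 between Belgrade rats on a normal diet and controls (SE, adjusted p = 0.3, limma), but the Belgrade mutation changes the protein, so that this level does not check the genotype.

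Most members were higher at the villus top than at the bottom and none was called lower. Of 9 genes, 7 passed an adjusted p of 0.05 as higher at the top (limma on the difference within each rat, averaged over the 6 groups, adjusted by Benjamini-Hochberg over 26517 probe sets). The same test called 25.5% of all probe sets higher and 28.8% lower at the top, 54.2% in all, and nothing is read from the members' count. Cda, Slc28a2 and Ada had the largest steps, at 4.51, 2.77 and 2.00, and passed in each of the 6 groups. Slc28a1, Nt5e and Slc29a1 had steps between 1.21 and 1.83, Xdh had one of 0.31, and Upp1 and Pnp did not pass. Sections are mixtures of cells, so fewer cells of a type and less RNA per cell cannot be told apart.

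**Figure D1:**
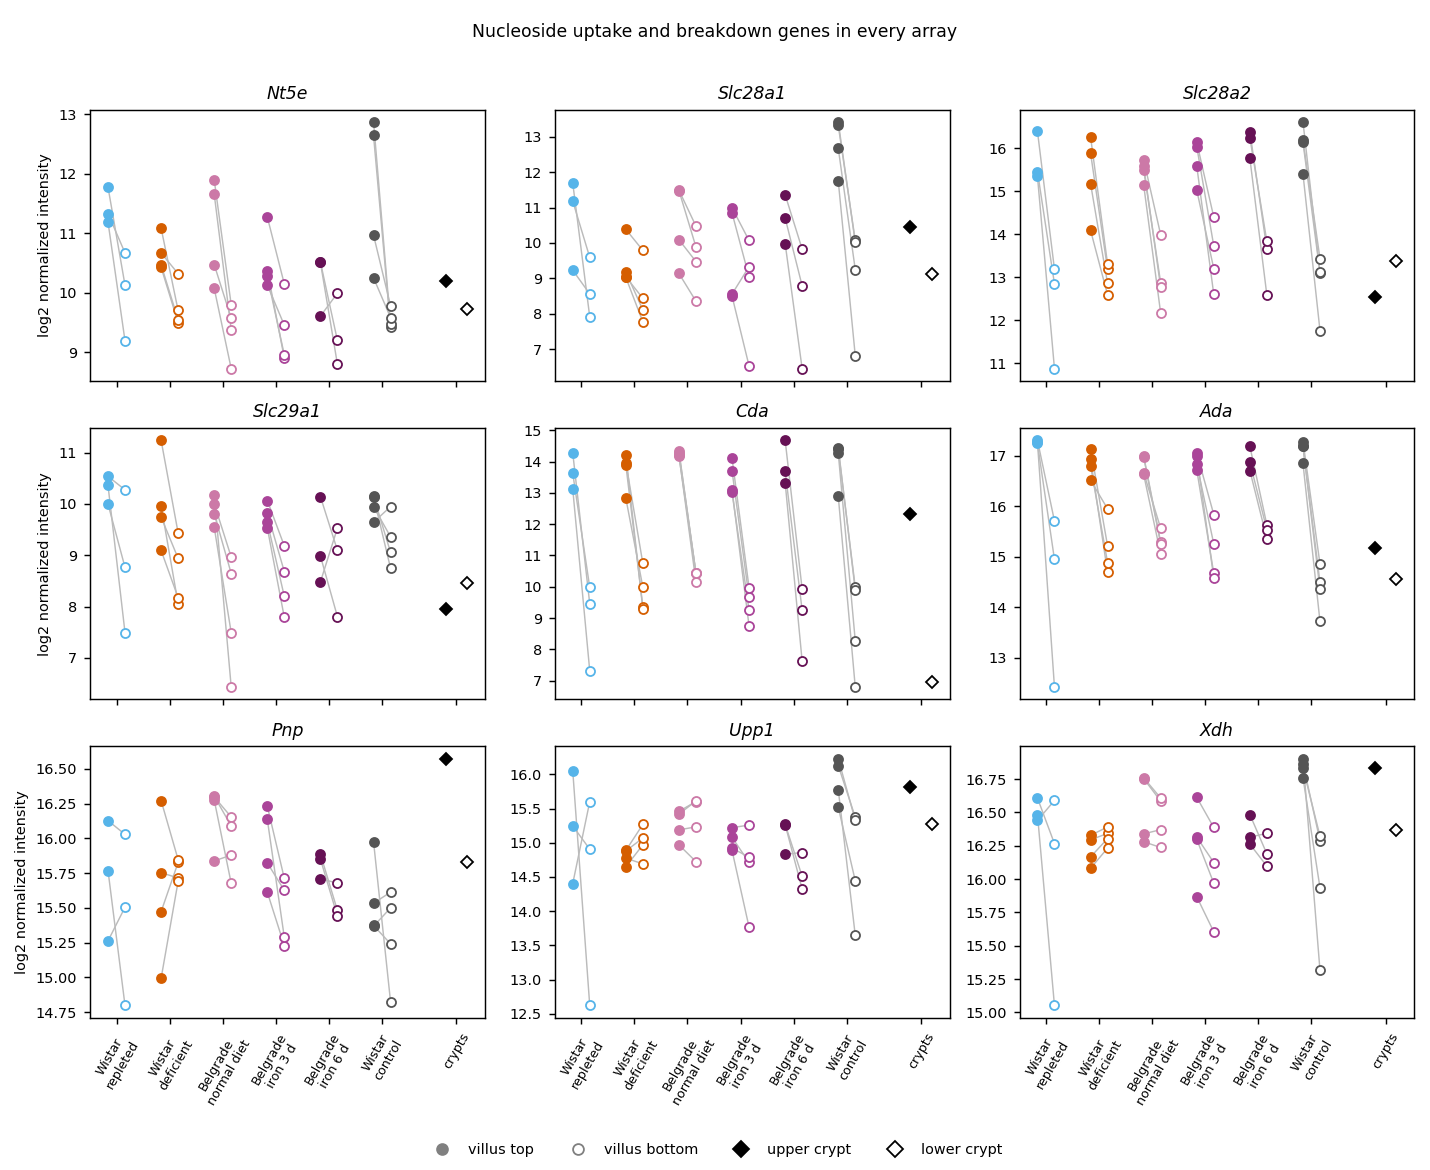
Log2 normalized intensity (y axis) of the 9 genes, 1 panel per gene, with 1 point per array, for the villus top and bottom of the 6 groups and for the 2 crypt arrays. All top arrays of Cda (12.83 to 14.68) lie above all its bottom arrays (6.80 to 10.75), and the share of all probe sets with such a gap is not given.

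To show what stands upstream of the 3 genes with the largest steps, the 250 bases before their transcription start are given, 5′ to 3′ on the strand of the gene, from RefSeq annotation of the GRCr8 build. The windows are chr5:155866542-155866791 on the minus strand for Cda, chr3:129819538-129819787 on the plus strand for Slc28a2 and chr3:172842284-172842533 on the minus strand for Ada. Capitals mark matches to motifs of intestinal transcription factors.
Cda: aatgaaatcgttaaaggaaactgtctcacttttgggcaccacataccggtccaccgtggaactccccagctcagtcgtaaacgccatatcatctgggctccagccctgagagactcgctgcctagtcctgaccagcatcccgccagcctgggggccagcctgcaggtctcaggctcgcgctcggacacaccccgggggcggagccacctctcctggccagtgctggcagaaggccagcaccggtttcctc
Slc28a2: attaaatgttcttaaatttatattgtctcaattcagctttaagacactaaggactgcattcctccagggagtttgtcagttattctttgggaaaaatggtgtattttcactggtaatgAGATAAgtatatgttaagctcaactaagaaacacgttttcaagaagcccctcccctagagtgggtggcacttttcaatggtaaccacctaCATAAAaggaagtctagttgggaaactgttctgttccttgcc
Ada: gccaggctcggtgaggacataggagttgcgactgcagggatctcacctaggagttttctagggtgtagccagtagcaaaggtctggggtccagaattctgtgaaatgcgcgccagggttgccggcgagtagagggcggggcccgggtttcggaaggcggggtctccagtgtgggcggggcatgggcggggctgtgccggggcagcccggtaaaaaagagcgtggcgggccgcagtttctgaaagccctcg
Both strands were searched for 4 motifs, whose matches do not overlap in these windows. The HNF4 motif was CAAAGTCCA. The letters searched for the liver and gut factor HNF1 were GTTAAT. The motif bound by GATA factors was taken as AGATAA. For the homeobox factors of the CDX family it was CATAAA. Among the promoters of all 9 members, only that of Slc28a2 held any of them, a GATA match 132 bases and a CDX match 42 bases before the start. Of 33465 rat promoter windows of this length, 0.3% held the HNF4 motif, 6.4% the HNF1 motif, 10.3% the GATA motif and 11.4% the CDX motif, and 24.6% held at least 1. The Slc28a2 window had 38.0% G and C, against 62.0% for Cda and 64.0% for Ada and a median of 51.2% over all promoters.

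Nt5e, the surface enzyme CD73 that turns AMP into adenosine, was higher at the villus top. Its level at the top was 9.61 at the lowest, 10.52 at the median and 12.76 at the highest of the 20 counted samples, against 8.73, 9.56 and 10.67 at the bottom. The 2 ranges overlapped, but within rats the top was higher in 21 of 22, and the exception was rat 1 of the Belgrade group given iron for 6 days (a difference of -0.39). The mean difference was 1.26 ± 0.18 (SE, adjusted p = 1.05e-05, limma). The control rats spanned the widest range, since rats 1 and 2, the near-identical pair, read 12.65 and 12.87 at the top and rats 3 and 4 read 10.25 and 10.97.

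The 3 transporters differed in the size of their step. Slc28a2, the concentrative carrier CNT2 that prefers purine nucleosides, was at 14.09 to 16.61 at the top, with a median of 15.75, against 10.87 to 14.40 at the bottom, with a median of 13.15. Only 1 bottom array, that of rat 4 of the Belgrade group given iron for 3 days, was above the lowest top array. The difference was 2.77 ± 0.14 (SE, adjusted p = 5.99e-11, limma) and the top was higher in 22 of 22 rats. In that rat's bottom array the pancreas list stood at 16.91, and in the lowest bottom array, that of repleted rat 3, the stroma list stood at 19.23. Without repleted rat 3 the difference for Slc28a2 was 2.68.

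Slc28a1, the concentrative carrier CNT1 that prefers pyrimidine nucleosides, was higher at the top by 1.83 ± 0.22 (SE, adjusted p = 1.56e-06, limma), in 21 of 22 rats. The group means of its step spanned a wider range than those of any other member, and the step passed in 3 of the 6 groups. The difference was 2.33 ± 1.06 (SD) in the Belgrade rats given iron for 6 days, 2.01 ± 1.60 in the repleted rats and 3.89 ± 0.90 in the control rats (n = 3 each), and these passed (adjusted p = 0.00598, 0.0109 and 8.72e-05 from limma). It was 0.88 ± 0.34 in the deficient rats (n = 4), 0.90 ± 0.36 in the Belgrade rats on a normal diet (n = 3) and 0.98 ± 1.26 in those given iron for 3 days (n = 4), and these did not (adjusted p = 0.195, 0.329 and 0.161). The bottom means of Slc28a1 ran from 8.36 to 9.34 over the 6 groups. These lie near or below the 40th percentile of an array (8.99), so that the sizes of its steps are imprecise. Slc29a1, the equilibrative carrier ENT1, stood at 9.86 ± 0.58 at the top and 8.64 ± 0.90 at the bottom (SD, n = 20), a difference of 1.21 ± 0.21 (SE, adjusted p = 9.83e-05, limma) that held in 20 of 22 rats.

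The 2 deaminases had clear steps. Cda, which deaminates cytidine and deoxycytidine, was at 12.83 to 14.68 at the top and 6.80 to 10.75 at the bottom over the 44 arrays, with no overlap. The share of all probe sets without such overlap is not given, and nothing is read from it. The difference for Cda of 4.51 ± 0.16 (SE, adjusted p = 3.14e-12, limma) ranked 21 by size among 26517 probe sets, and ranged from 2.84 to 6.10 over the counted samples. Of the 20 counted bottom values, 5 lay below the 40th percentile of an array (8.99), where the size of a difference is imprecise. The lowest 3 bottom values, 7.62 in rat 3 of the Belgrade group given iron for 6 days, 7.32 in repleted rat 3 and 6.80 in control rat 3, came from arrays whose stroma list stood at 17.80, 19.23 and 19.25. In that Belgrade group the stroma list reached 18.44 in the bottom array of another rat. Cda was higher in the other bottom arrays of that group, at 9.25 in rat 1 and 9.92 in rat 2. The part of that tissue in the values was not tested, and the difference was 4.42 without repleted rat 3 and 4.46 without control rat 3. Ada, which deaminates adenosine, was at 16.96 ± 0.24 at the top and 14.98 ± 0.81 at the bottom (SD, n = 20). Its lowest top array was above its highest bottom array, but here too the share of all probe sets with such a gap is not given. The difference for Ada was 2.00 ± 0.17 (SE, adjusted p = 3.3e-08, limma), and 1.84 without repleted rat 3, whose bottom array was the lowest at 12.42.

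**Figure D2:**
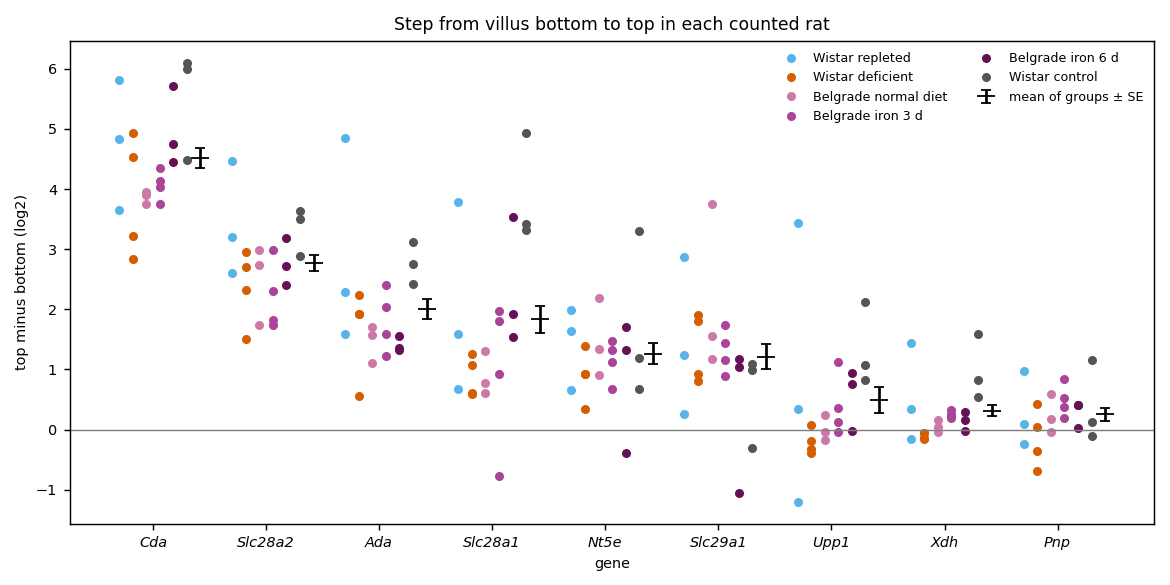
Top minus bottom within each rat (y axis, log2) for the 9 genes and 6 groups, with 1 point per counted sample and, in black, the mean of the 6 groups with its SE. Cda, Slc28a2 and Ada are above 0 in every sample, and Xdh is below 0 in all 4 deficient rats.

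The phosphorylases and Xdh had small steps. Pnp, which splits inosine and guanosine, was at 15.81 ± 0.37 at the top and 15.56 ± 0.35 at the bottom (SD, n = 20), a difference of 0.26 ± 0.11 (SE, adjusted p = 0.0561, limma). Its dimmer probe set differed by 0.25 ± 0.22 (adjusted p = 0.351, limma). Upp1, which splits uridine, was at 15.17 ± 0.45 at the top and 14.72 ± 0.72 at the bottom, a difference of 0.49 ± 0.21 (adjusted p = 0.0601, limma), with the top higher in 13 of 22 rats. Both genes passed under 2 other scalings. With arrays centred on their median, Upp1 differed by 0.86 and Pnp by 0.60 (adjusted p = 0.00126 and 0.000336 from limma), and with the values as deposited by 0.74 and 0.48 (adjusted p = 0.00529 and 0.00136). Xdh, which takes hypoxanthine and xanthine to urate, was at 16.42 ± 0.26 at the top and 16.13 ± 0.40 at the bottom (SD, n = 20) and rose by 0.31 ± 0.09 (SE, adjusted p = 0.00952, limma), in 15 of 22 rats. With rat number as a block over all 22 rats, Xdh did not pass (0.28, adjusted p = 0.2, limma).

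Within single groups, 4 of 9 members passed as higher at the top in the deficient rats, 6 in the repleted and 6 in the control rats, where the same tests called 13.6%, 14.2% and 11.6% of all probe sets higher. In the Belgrade rats 5 of 9 passed on a normal diet, 5 after 3 days of iron and 4 after 6 days, where 7.48%, 11.5% and 10.4% of all probe sets were called higher. None was called lower in any group. Leaving out 1 rat of the group gave 3 members in the deficient, 4 to 6 in the repleted and 5 to 6 in the control rats, and 2 to 3 in Belgrade rats on a normal diet, 3 to 4 after 3 days of iron and 2 to 3 after 6 days. Nt5e passed in 4 groups and not in the deficient rats or the Belgrade rats given iron for 6 days. Slc29a1 passed in 4 groups and not in the control rats or the Belgrade rats given iron for 6 days. Xdh passed in the control rats alone, with a step of 0.99 ± 0.54 (SD, n = 3, adjusted p = 0.00624, limma).

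The other genes of nucleotide metabolism were counted on lists of 74 genes, of which 64 had a probe set and 59 were tested. Of these 16 were higher and 27 lower at the top, with a median difference of -0.49, against 25.5% and 28.8% of all probe sets and a median of 0.02. Among ectonucleotidases and phosphatases, 7 of 11 were higher and 2 lower, with a median of 0.79. That list held Entpd, Enpp and alkaline phosphatase genes, and it does not separate proteins of the cell surface from others. Enpp3, which cleaves extracellular nucleotides, was at 16.61 ± 0.34 at the top and 14.02 ± 0.64 at the bottom (SD, n = 20), a difference of 2.60 ± 0.12 (SE, adjusted p = 2e-11, limma). Alpi, the intestinal alkaline phosphatase, was higher at the top by 2.20 ± 0.24 (adjusted p = 5.3e-07) and Entpd2, which removes phosphates from ATP, by 1.64 ± 0.09 (adjusted p = 1.82e-10), whereas Entpd6 fell by 1.40 (adjusted p = 1.36e-06). Alpi is also on the list of enterocyte markers set against the segment labels above, so that its step is not separate from that check.

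De novo synthesis ran the other way, with 11 of 12 genes lower at the top, none higher and a median of -1.85. Prps2, which makes the ribose phosphate donor of both pathways, was at 9.74 ± 0.82 at the top and 12.88 ± 0.50 at the bottom (SD, n = 20), and fell by 3.11 (adjusted p = 1.32e-09, limma). Cad, which starts pyrimidine synthesis, fell by 2.47 (adjusted p = 3.87e-10), and Atic, which completes the purine ring, fell by 2.24 (adjusted p = 1.25e-11). Genes of the salvage list were lower in 8 of 11 and higher in 1, with a median of -1.09. That list also held Umps, an enzyme of de novo pyrimidine synthesis, which stood at 11.50 ± 0.30 at the top and 12.77 ± 0.40 at the bottom (SD, n = 20). Tk1, the thymidine kinase of dividing cells, fell by 2.10 (adjusted p = 1.54e-07) and Hprt1, which salvages hypoxanthine and guanine, by 1.31 (adjusted p = 5.81e-10, limma). Uck2 stood at 10.39 ± 0.63 at the top and 11.864 ± 0.285 at the bottom (SD, n = 20). The exception was Dck, deoxycytidine kinase, named after its value was seen, which was higher at the top by 0.82 ± 0.12 (adjusted p = 1.21e-05). The list of dividing-cell markers moved with these genes, at 14.35 to 16.70 in the top arrays and 16.53 to 17.20 in the bottom arrays, and its part in the result was not tested.

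The other breakdown enzymes were mixed, with 6 of 17 higher, 6 lower and a median of -0.45. Ampd3, an AMP deaminase, was at 14.43 ± 0.44 at the top and 11.67 ± 0.66 at the bottom (SD, n = 20), a difference of 2.78 ± 0.11 (SE, adjusted p = 7.33e-12, limma). Nt5c2, a cytosolic nucleotidase that acts on IMP and GMP, was higher at the top by 2.14 ± 0.16 (adjusted p = 6.73e-09), whereas the cytosolic nucleotidase Nt5c3b fell by 1.74 (adjusted p = 8.98e-07). Of 5 other nucleoside and urate transporters 2 were higher and none lower. They were Abcg2, an efflux pump that carries urate, by 3.41 ± 0.23 (adjusted p = 1.5e-09), and the urate carrier Slc2a9 by 1.09 ± 0.13 (adjusted p = 2.07e-06). None of 3 adenosine receptors passed.

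**Figure D3:**
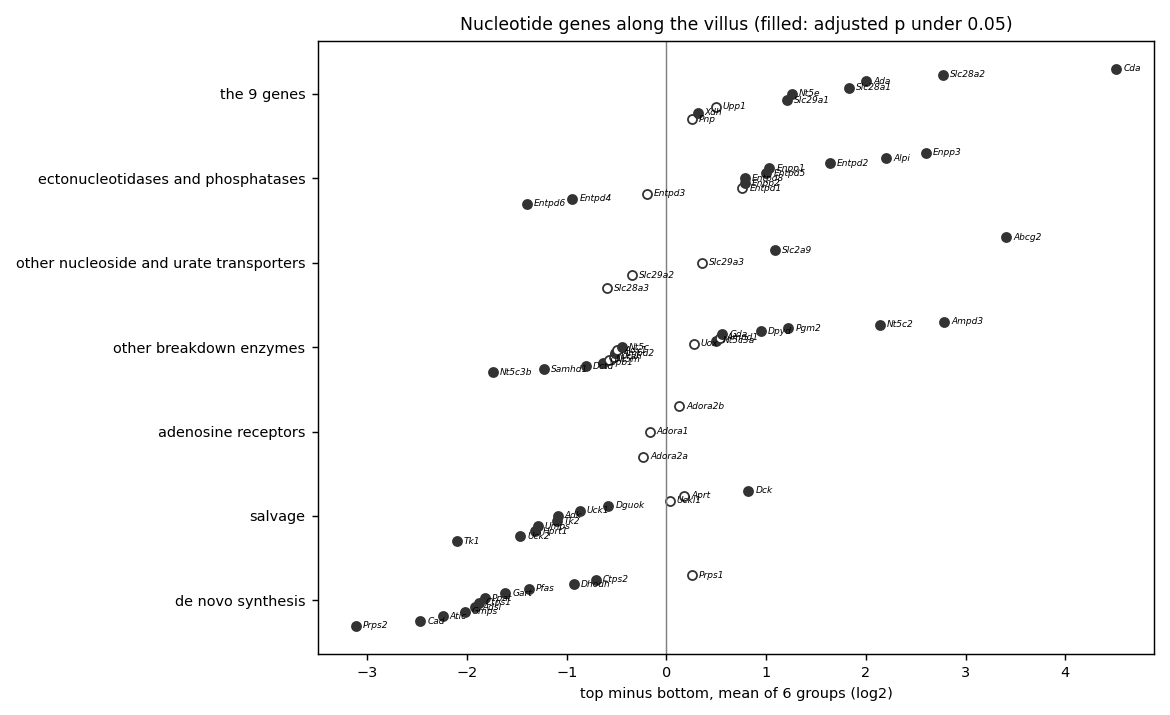
Top minus bottom (x axis, log2) for the 9 member genes and the genes of the 6 other lists of nucleotide metabolism, with 1 point per gene. De novo synthesis genes lie mostly left of 0, with a median of -1.85, and ectonucleotidases and phosphatases mostly right of it, with a median of 0.79.

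In the single rat with crypt arrays, Cda was far higher in the upper than in the lower crypt. The upper crypt array gave 12.33 and the lower 6.95 after both were mapped by rank to the villus scale, a difference of 5.37, and the deposited intensities were 4842.9 and 79.4. The lower crypt value lies below the 40th percentile of an array (8.99), so that the size of the difference is imprecise. With 1 array per site there is no test. Slc28a1 was at 10.47 in the upper and 9.14 in the lower crypt, a difference of 1.33. Ada, Nt5e, Pnp, Upp1 and Xdh differed by 0.46 to 0.74, but the other Pnp probe set differed by 2.31, at 9.98 in the upper and 7.67 in the lower crypt. Slc28a2, at 12.55 in the upper and 13.38 in the lower crypt, and Slc29a1, at 7.96 and 8.45, were lower in the upper crypt array by 0.83 and 0.49. Their direction along the villus was the opposite. Both Slc29a1 values lie below 8.99, so that its difference is imprecise. Of all probe sets, 17.4% had a lower difference than Slc28a2 and 27.5% a lower one than Slc29a1. Of all probe sets 12.2% differed by more than 1 upward and 14% by more than 1 downward. The array labelled upper crypt had a summed enterocyte marker level of 19.92, inside the range of the villus tops (19.75 to 20.27), and the lower crypt array one of 18.48. The dividing-cell list stood at 16.81 in the upper and 16.75 in the lower crypt.

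Diet and genotype were compared to ask whether iron supply changes these genes. With the top and bottom of each rat averaged, none of the 9 members passed in any of 7 comparisons between groups. Of all probe sets 0.404% passed between deficient and control rats, 0.0679% between repleted and control rats, 0.0113% between Belgrade rats on a normal diet and controls, and 0 in the other 4 comparisons. At an unadjusted p under 0.05, limma gave 1 of 9 members between deficient and control rats and 2 of 9 between Belgrade rats and controls, against 14.1% and 6.0% of all probe sets. The largest of these differences for Cda was 1.22 ± 0.50 (SE, adjusted p = 0.77, limma), higher in Belgrade rats on a normal diet than in controls. The difference for Slc28a1 was -1.68 ± 0.70 between deficient and control rats (adjusted p = 0.266, limma). With rat number as a block over all 22 rats it was -1.95 and passed (adjusted p = 0.0419, limma), although the labels do not state that rat numbers pair rats. That fit also counted the near-identical control rats as separate animals.

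The top arrays alone gave 1 call among the members. Slc28a1 read 9.03, 9.18, 9.04 and 10.39 in the tops of the 4 deficient rats, against 13.32, 13.42, 11.75 and 12.68 in those of the 4 control rats. The groups did not overlap, but the share of all probe sets with such a gap is not given. Of the 4 deficient tops, 3 lay near the 40th percentile of an array (8.99). Slc28a1 was thus at 9.41 ± 0.66 (SD, n = 4) in deficient and 12.60 ± 0.81 (SD, n = 3) in control tops, and fell by 3.19 ± 0.68 (SE, adjusted p = 0.0245, limma on the top arrays alone). In that fit 0.977% of all probe sets passed, 0.517% as lower. The call was lost without control rats 1 and 2 (-2.80, adjusted p = 0.172), without control rat 4 (adjusted p = 0.0713) and without deficient rat 1, 2 or 3 (adjusted p = 0.0692, 0.0858 and 0.058), and with no trend in the variance fit (adjusted p = 0.118, all limma), and it kept its direction in each of these. In the bottom arrays Slc28a1 differed by -0.18 (adjusted p = 0.96, limma).

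The other 4 groups also had lower Slc28a1 tops than the controls. The values were 11.18, 9.23 and 11.70 in repleted rats and 11.48, 11.49, 10.09 and 9.14 in Belgrade rats on a normal diet. They were 10.85, 10.99, 8.50 and 8.56 in Belgrade rats given iron for 3 days and 10.71, 11.36 and 9.98 in those given iron for 6 days. No top array outside the control group reached the lowest control top, 11.75. The share of all probe sets with such a gap is not given, and nothing is read from it. Each comparison rests on the same 3 counted control samples, and the Belgrade groups given iron were not tested against controls. The tests that were run did not pass, with -1.90 ± 0.73 between repleted and control tops (adjusted p = 0.22, limma) and -2.36 ± 0.73 between Belgrade tops on a normal diet and control tops (adjusted p = 0.325). Repleted minus deficient tops gave 1.29 ± 0.68 (adjusted p = 0.443, limma). In these fits 0.207%, 0.0905% and 0 of all probe sets passed. The first 2 of these share the control rats. In Belgrade tops on a normal diet the dividing-cell list stood at 16.09 to 16.70 and the goblet cell list at 18.47 to 18.66, against 14.52 to 15.26 and 17.59 to 18.03 in control tops. The red blood cell list stood at 14.40 to 16.01 and the list of lymphocytes, plasma cells and antigen-presenting cells at 16.55 to 17.38 in those Belgrade tops, against 13.71 to 13.97 and 17.47 to 17.77 in control tops. These 4 lists did not overlap, and their part in the Slc28a1 difference was not tested.

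Upp1 and Xdh were also lower in deficient than in control tops without passing. Upp1 read 14.77, 14.65, 14.88 and 14.89 in deficient tops, against 16.13, 16.23, 15.78 and 15.52 in control tops, with a difference of -1.03 ± 0.25 (SE, adjusted p = 0.0509, limma). Xdh read 16.29, 16.33, 16.17 and 16.08 in deficient tops, against 16.87, 16.83, 16.90 and 16.76 in control tops, with a difference of -0.62 ± 0.16 (adjusted p = 0.069, limma). Neither pair of groups overlapped, but the share of all probe sets with such a gap is not given. Both genes passed with all 22 rats counted separately (adjusted p = 0.00735 for Upp1 and 0.0199 for Xdh, limma). That setting counts the near-identical control rats as separate animals, and the share of all probe sets passing in it is not given. Nothing is read from these gaps and passes. Between Belgrade tops on a normal diet and control tops, Upp1 differed by -0.63 ± 0.27 (adjusted p = 0.671) and Xdh by -0.38 ± 0.18 (adjusted p = 0.727). The summed enterocyte markers stood at 19.75 to 19.99 in deficient tops and at 20.06 to 20.27 in control tops, also without overlap, and stroma markers at 16.14 to 16.86 in deficient and 16.59 to 17.01 in control tops. The red blood cell list stood at 15.08 to 17.04 in deficient tops and 13.71 to 13.97 in control tops, the goblet cell list at 18.25 to 18.40 in deficient and 17.59 to 18.03 in control tops, and the Paneth cell list at 14.43 to 14.94 in deficient and 15.12 to 15.24 in control tops, none of them with overlap. The exocrine pancreas markers stood at 11.09 to 12.43 in deficient tops and 11.89 to 14.89 in control tops. The part of these cell types in the differences of Slc28a1, Upp1 and Xdh was not tested.

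**Figure D4:**
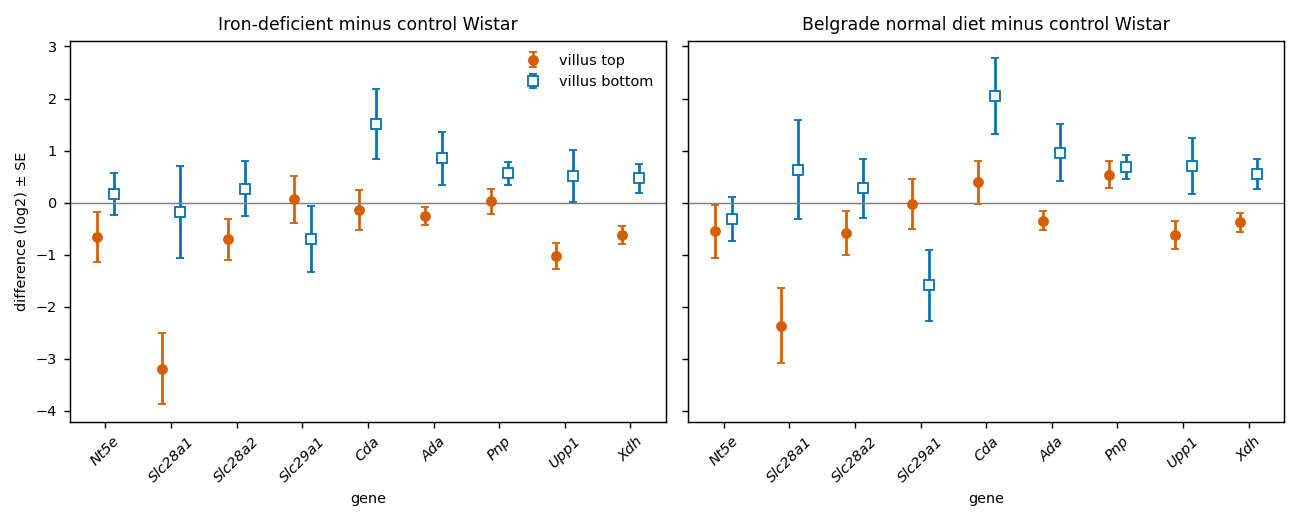
Difference from control Wistar rats (y axis, log2, with SE) for the 9 genes in the top arrays and in the bottom arrays, for iron-deficient Wistar rats on the left and Belgrade rats on a normal diet on the right. Slc28a1 in the tops is lowest in both panels, at -3.19 and -2.36, and only the first passed the test.

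At the bottom of the villus no member passed between groups, where 0 probe sets passed between deficient and control rats and 0.00377% between Belgrade rats and controls. Cda read 10.75, 9.37, 9.99 and 9.29 in deficient bottoms and 10.44, 10.15, 10.43 and 10.43 in Belgrade bottoms on a normal diet, against 9.99, 9.89, 6.80 and 8.28 in control bottoms. The differences were 1.51 ± 0.68 between deficient and control bottoms (adjusted p = 0.351, limma) and 2.05 ± 0.73 between Belgrade and control bottoms (adjusted p = 0.747). The 2 low control values came from rats 3 and 4, whose stroma lists stood at 19.25 and 17.84. Slc29a1 differed by -1.59 ± 0.68 between Belgrade and control bottoms (adjusted p = 0.747, limma).

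Whether the step along the villus itself differed between groups was tested for deficient and for Belgrade rats against controls. Slc28a1 had a smaller step in deficient than in control rats by -3.01 ± 0.74 and in Belgrade rats on a normal diet by -2.99 ± 0.79, but neither passed (adjusted p = 0.288 and 0.627, limma). Cda differed by -1.65 ± 0.55 in deficient and -1.66 ± 0.59 in Belgrade rats (adjusted p = 0.38 and 0.709), and Xdh by -1.09 ± 0.32 and -0.93 ± 0.34 (adjusted p = 0.317 and 0.714). None of the 26517 probe sets passed in either test, and at an unadjusted p under 0.05 there were 4 and 3 of the 9 members, against 9.04% and 6.45% of all probe sets. The 2 tests share the control rats. The enterocyte list had a median difference of -1.41 in deficient and -1.47 in Belgrade rats in the same tests, with 0 of 8 genes called, and its part in the members' values was not tested.

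Iron given to Belgrade rats was followed by no call. After 3 days of iron Cda differed from Belgrade rats on a normal diet by -0.88 ± 0.47, and after 6 days by -0.91 ± 0.50 (adjusted p = 1 for both, limma, mean of both segments). Cda tops read 13.01, 13.70, 13.10 and 14.11 after 3 days and 13.69, 14.68 and 13.33 after 6 days, against 14.29, 14.21, 14.18 and 14.33 on a normal diet. These ranges overlapped after 6 days and not after 3, in comparisons where 0 probe sets passed. Xist was high in all 3 rats given iron for 6 days and in 1 of 4 on a normal diet, and with the Xist level of each rat as a covariate Cda differed by -0.71 ± 0.56 (adjusted p = 1, limma), in a fit where 0 probe sets passed for that comparison. Of the 59 tested genes of the other lists only Nt5c2 passed in a group comparison, higher in deficient than in control rats by 0.96 ± 0.19 (SE, adjusted p = 0.035, limma). In that comparison 0.404% of all probe sets passed. With no variance trend 0 probe sets passed, so that the Nt5c2 call was lost.

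The genes most like each member over the 40 counted villus arrays were found by Pearson correlation, which follows the top and bottom of the villus and is given as a description. Cda was most like Agfg1 (r = 0.97), Enpp3 (0.97) and Gucy2c (0.97). Ada was most like Cideb (0.96), Arhgef16 (0.95) and Cdh17 (0.95), and Slc28a2 most like Tmem37 (0.94), Sgk1 (0.93) and Arhgef16 (0.93). Slc28a1 was most like Slc3a2 (0.83), Trpm4 (0.83) and Cyp27a1 (0.83), and Nt5e most like Selenop (0.82), Ccser2 (0.82) and Tent5a (0.81). Pnp was most like Prss32 (0.81), Casp16 (0.79) and C2h4orf3 (0.77), and Slc29a1 most like Pros1 (0.78), A3galt2 (0.76) and Fhl2 (0.74). Upp1 and Xdh shared Slc5a11 as the most like gene (0.90 and 0.89). Among the members, Cda with Slc28a2 (0.91), Cda with Ada (0.90), Ada with Slc28a2 (0.90) and Upp1 with Xdh (0.88) were the closest pairs, and Slc29a1 was near 0 with Upp1 (-0.01) and Xdh (-0.04).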

How the data were processed

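RNA from villus and crypt sections had been hybridised to single-channel Affymetrix rat arrays. What the authors deposited is a linear intensity for every probe set on every array. How the authors computed them is not given in the sources used here, and the values show that 42 arrays were scaled to one trimmed mean and 4 to a higher one, which removes any shift that most genes have in common. From these intensities, log2 values were computed here after adding 44, the 10th percentile, and the villus arrays were quantile normalized. Control probe sets were left out, and 26517 probe sets above the 40th percentile of their array on at least 3 arrays were kept. Rats of a group whose arrays differed by a robust SD under 0.2 over 5304 bright probe sets (0.137 to 0.172, against 0.221 to 0.726 for 56 other pairs) were averaged.

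Groups were compared with limma 3.58.1 (lmFit, and eBayes with a trend) in R 4.3.3 (tables handled by data.table, version 1.17.8), in 1 fit of 6 groups, on the mean of the 2 segments of each rat, and top with bottom on the difference within each rat. Adjusted p-values are by Benjamini-Hochberg over all probe sets, two-sided, with a threshold of 0.05. The number of arrays limits the precision, and p-values measure only the spread between these rats. The top and bottom arrays share an animal by their labels; after group means were removed, 17 of 22 top arrays correlated best with their own bottom array. The labels do not state that rat numbers pair rats between groups. In none of the 7 comparisons did every same-numbered pair correlate above 0.1. This cannot exclude pairing, since the top and bottom arrays of the same rat correlated at only 0.001 to 0.214, with a median of 0.098. The fit was tested on simulated data.

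The members, lists and tests were chosen with earlier results of these data known. Named are all members (the brightest probe set where a gene has several), up to 4 called genes with the largest difference per list of nucleotide metabolism, and the 3 genes most like each member. Alternatives were the scaling, pseudocount, filter, variance trend, all 22 rats, Xist as a covariate, each segment alone, the blocks and leaving out each rat; leaving out rats of groups not compared, and all alternatives for top arrays alone, were added after the data were seen. The files name no genome build. Promoter sequences and positions are from RefSeq, GRCr8, where 9 of 9 members matched by Entrez gene number.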

Additional observations from a re-analysis of the deposited data

Results flagged for a closer look

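Slc28a1 in the villus tops of deficient rats had a lone value. Rat 4 read 10.39, where the other 3 read 9.03 to 9.18, and the gap was 0.886 of the group's range, over Dixon's critical value for 4 samples. Among 60 groups of 4 values tested, chance alone flags about 1 in 20. Without deficient rat 4 the difference between deficient and control tops still passed (adjusted p = 0.0187, limma on the top arrays alone). Xdh was lower at the top than at the bottom in all 4 deficient rats, with a mean difference of -0.1, while it was higher at the top in every control rat and every Belgrade rat given iron for 3 days. It was also lower at the top in repleted rat 2 (-0.15), rat 4 of the Belgrade group on a normal diet (-0.03) and rat 2 of those given iron for 6 days (-0.03). The difference between deficient and control steps was tested and did not pass (-1.09, adjusted p = 0.317, limma).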

How the results depend on the processing

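The number of members called between deficient and control rats was 1 in place of 0 with the top arrays alone and 1 with the replicate block over all 22 rats, and the members called between top and bottom in Belgrade rats given iron for 3 days were 3 in place of 5 with that block. The block raised all calls between deficient and control rats to 1317 in place of 107, all 22 rats without it to 680, and centring on the median left 7 and no variance trend 0. With Xist as a covariate, 9 probe sets were called between deficient and control rats in place of 107, 57 between repleted and control rats in place of 18 and 5 between Belgrade rats and controls in place of 3, with no member called in any of the 7 group comparisons. Between top and bottom the block left 9115 in place of 14382. Leaving out 1 rat of the groups compared gave 7 to 8 members called between top and bottom over all groups, 3 in deficient rats (3 to 3), 4 to 6 in repleted rats, 5 to 6 in controls, 2 to 3 in Belgrade rats on a normal diet, 3 to 4 after 3 days of iron and 2 to 3 after 6 days. In the Belgrade groups the calls moved without any 1 of the rats on a normal diet, without rat 1, 2 or 3 of those given iron for 3 days, also without deficient rat 2 (3), and without rat 3 of those given iron for 6 days. With the values as deposited, 38.8% of the calls between top and bottom were higher at the top, against 47% in the report. Cda, Slc28a2, Ada, Slc28a1, Nt5e and Slc29a1 stayed called as higher at the top over all groups under each alternative run, and no called member changed direction. Upp1 also passed without repleted rat 2 (0.67, adjusted p = 0.00367, limma) and Pnp without control rats 1 and 2, deficient rat 4 or repleted rat 1 (adjusted p = 0.0344, 0.0352 and 0.0304). With deficient tops set against control tops, the count of members was 1 as reported, 0 with no variance trend, 2 with the pseudocount doubled or without repleted rat 2 or 3, and 3 with all 22 rats. The causes were not tested. Levels near the 40th percentile of an array, 8.99, limit what Slc29a1, the bottom arrays and lower top arrays of Slc28a1 and the lower bottom arrays of Cda can show.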

Other observations

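The genes named here were chosen after their values were seen, apart from Samhd1 and Pnp. Among genes of the lists not described above, the surface phosphodiesterase Enpp1 was higher at the villus top by 1.03 ± 0.09 (SE, adjusted p = 1.63e-08, limma). Entpd5 and Entpd8, on the same list, were higher by 1.00 ± 0.17 and 0.79 ± 0.10 (adjusted p = 7.11e-05 and 2.4e-06, limma). Of the pyrimidine base breakdown genes, Dpyd, which starts the pathway, was higher at the top by 0.94 ± 0.15 (adjusted p = 3.98e-05), whereas Upb1, which ends it, fell by 0.64 (adjusted p = 0.0285, limma). Upb1 stood at 7.65 ± 1.15 at the top and 8.26 ± 1.04 at the bottom (SD, n = 20), and was higher at the top in 6 of 20. Both means lie below the 40th percentile of an array (8.99), so that the difference is imprecise. Gda, the guanine deaminase, was higher at the top by 0.56 ± 0.08 (adjusted p = 1.79e-05), and Samhd1, which breaks down deoxynucleoside triphosphates, fell by 1.23 (adjusted p = 0.000745). The mean level of the Pnp probe set used for the gene over both segments was higher in Belgrade rats on a normal diet than in controls by 0.61 ± 0.19, without passing (adjusted p = 0.559, limma).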
